A study of Mus musculus with 2 samples.

Results

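The genes described here encode mainly the cytosolic and mitochondrial folding machinery outside the HSP70 family. They comprise J proteins (DNAJ), HSP90 with 3 of its co-chaperones, the chaperonins, prefoldin, the small heat shock proteins, the BAG proteins and the heat shock factors Hsf1 and Hsf2. They were chosen by symbol among the protein-coding genes of the count table and number 78 of 44713 listed genes. Left out were 5 J proteins of the endoplasmic reticulum (ER), while others of the ER, such as Dnajb12 and Dnajb14, remain. Each gene was counted in 1 library of Lepr-/- mice (db/db, without a functional leptin receptor, which leads to obesity and diabetes) and 1 library labelled wild type (db/m), both on a C57BL/6 background and both of islets taken from the pancreas, used for total RNA after depletion of ribosomal RNA. The sources used here give no age, sex or number of animals for either library. The design text speaks of triplicates, both titles carry the number 4, and the labels do not say what that number stands for or whether a library is a pool. With 1 library per group there is no replicate error, so no p-value is given. Each ratio of db/db over db/m carries a 95% interval that covers counting error only.

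Chaperones bind unfolded protein and release it in a state that can fold. J proteins hand substrates to HSP70 and stimulate its ATPase, BAG proteins release the nucleotide from HSP70, HSP90 finishes the folding of kinases and receptors, small heat shock proteins hold substrates without ATP, and prefoldin passes nascent actin and tubulin to the cytosolic chaperonin CCT (also called TRiC). Heat shock factor 1 is kept inactive by chaperones and, when unfolded protein accumulates, forms trimers. These trimers bind repeated GAA units in alternating orientation (the heat shock element) in front of a subset of these genes. Many of the other genes are expressed constitutively. Acinar cells of the pancreas and endocrine cells of the islet both make large amounts of secreted protein.

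The libraries totalled 18233695 counts for db/db islets and 16271129 for db/m islets. Levels are given in CPM, the usual depth-scaled unit, after TMM adjustment (trimmed mean of M values), and a single count was then worth 0.0516 CPM in db/db islets and 0.0653 CPM in db/m islets. Genes that averaged at least 1 CPM were called higher or lower in db/db islets where they differed at least 2-fold and the interval excluded 1. For this and other limits on low counts, the mean CPM was taken before the TMM adjustment. Of 10300 genes compared, 4.04% were called lower and 3.83% higher, which makes 48.7% of the calls higher. With total counts as the scale, 67.1% of the calls were higher and every log2 ratio was larger by 0.18. Although the source label reads islet cells, 27 acinar markers took 67.3% of all counts in db/db islets and 68.1% in db/m islets, and 11 beta cell markers took 0.166% in db/db islets and 0.147% in db/m islets. In such mixed tissue, fewer cells of a type and less RNA per cell cannot be told apart.

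A few stretches of promoter are shown because the genes behind them either differed between the libraries or carry the element without having been called. They are taken from RefSeq for GRCm38.p6, on the plus strand, 5′ to 3′, with positions counted from the annotated start. Capitals mark the heat shock element, searched on both strands as 3 alternating units (GAA, TTC, GAA or TTC, GAA, TTC, with any 2 bases between neighbours), and in Hspb1 as 2 such units in either order.
Hspd1 and Hspe1, the 215 bases between their starts, chr1:55087933-55088147: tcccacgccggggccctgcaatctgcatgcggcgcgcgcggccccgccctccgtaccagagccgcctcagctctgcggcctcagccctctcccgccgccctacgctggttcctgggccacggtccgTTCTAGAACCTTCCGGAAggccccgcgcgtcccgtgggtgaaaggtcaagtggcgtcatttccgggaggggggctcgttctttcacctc
Chordc1, bases -100 to 20, chr9:18292167-18292286: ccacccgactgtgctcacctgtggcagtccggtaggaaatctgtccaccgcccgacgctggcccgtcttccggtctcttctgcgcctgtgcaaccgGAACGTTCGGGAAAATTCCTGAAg
Hspb1, bases -150 to -1, chr5:135887769-135887918: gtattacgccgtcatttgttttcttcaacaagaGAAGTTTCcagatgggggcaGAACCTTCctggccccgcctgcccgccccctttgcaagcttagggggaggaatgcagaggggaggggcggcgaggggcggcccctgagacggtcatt
Dnajb6, bases -100 to -1, chr5:29735798-29735897: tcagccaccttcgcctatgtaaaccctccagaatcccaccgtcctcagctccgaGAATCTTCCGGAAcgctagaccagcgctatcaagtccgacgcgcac

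Of the 78 genes, 60 reached a mean of 1 CPM, 10 had counts below that limit and 8 had 0 counts in both libraries. Among the 60, 9 were called lower in db/db islets (15%, against 4.04% of all genes compared) and 1 was called higher (1.67%, against 3.83%). Both directions together came to 16.7%, against 7.87% of all genes, which left 50 that were neither. The 9 lower genes were Hspb1, Hsp90aa1, Dnajb1, Hspd1, Dnaja4, Hspe1, Dnaja1, Bag3 and Chordc1, and the higher gene was Hspb6. The median log2 ratio was -0.10 over the 60, beside 0.02 over all genes compared. Among the 51 that were not called lower, a set from which the lowest ratios are removed, 25 ratios were below 1 and 26 above 1. With total counts these numbers were 19 and 32. In the main scaling the interval lay below 1 for 16 of the 51 and above 1 for 11. Over all 60, it lay below 1 for 41.7% (18.2% of all genes compared) and above 1 for 18.3% (20.7% of all genes compared). These shares depend on the scaling. With total counts every log2 ratio is larger by 0.18, so fewer intervals lie below 1 and more above 1, among the 60 and among all genes. Together the 9 lower genes, which the ratio itself picks out, made up 11.3% of the counts of the 78 genes in db/db islets (95% exact binomial interval 10.8% to 11.7%) and 35.3% in db/m islets (34.8% to 35.9%).

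**Figure D1:**
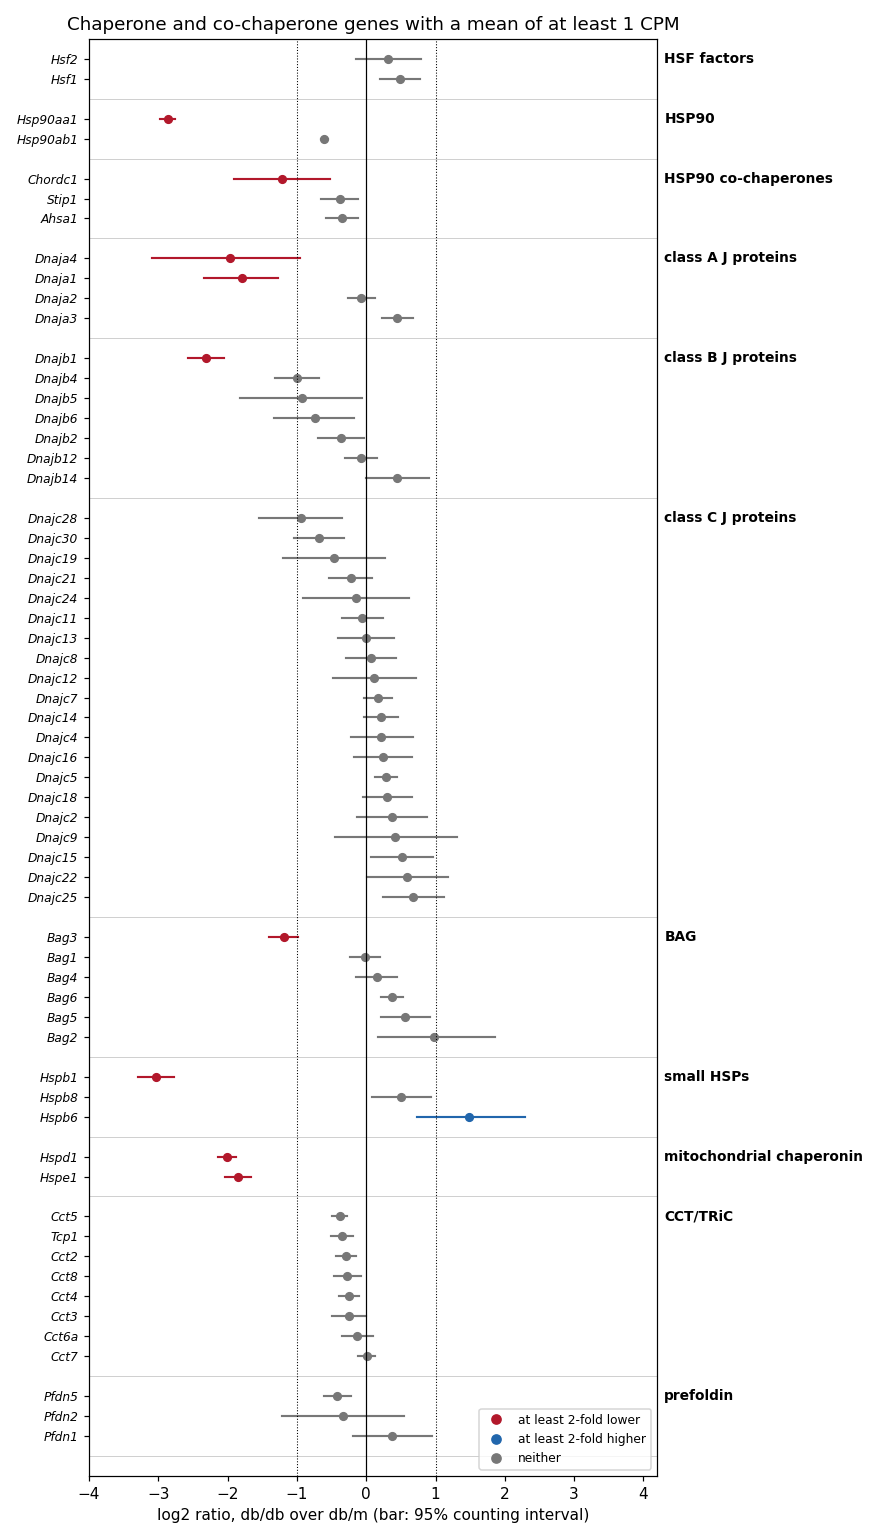
Log2 ratio of db/db over db/m for the 60 genes that averaged at least 1 CPM, grouped by role, with bars for the 95% counting interval and dotted lines at 2-fold. The 9 red points lie to the left of the dotted line at -1, from Hspb1 at -3.03 to Bag3 at -1.19, while the CCT subunits lie together between -0.39 and 0.00.

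**Figure D2:**
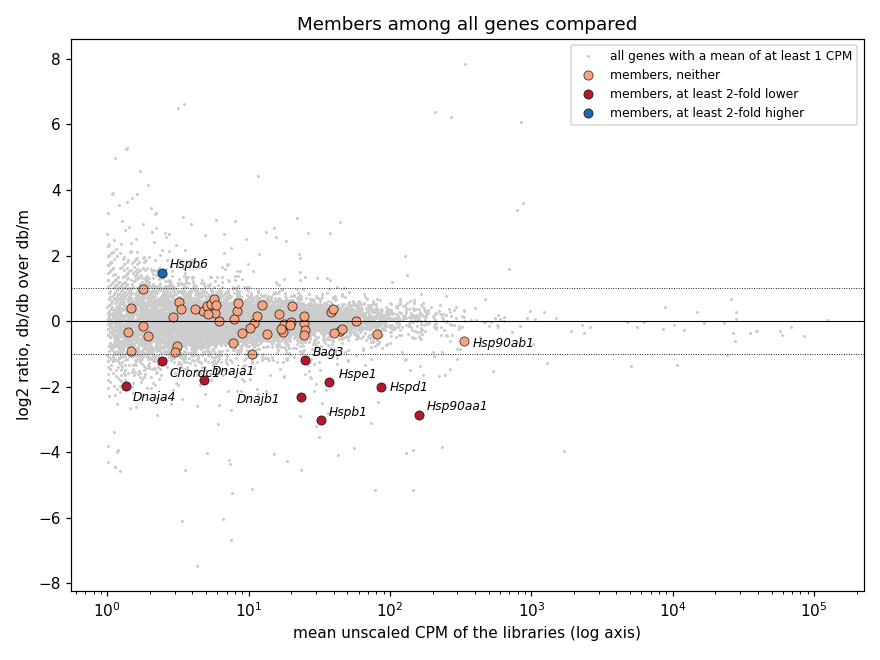
Log2 ratio of db/db over db/m against the mean unscaled CPM (log axis) for the 10300 genes compared (grey), with the 60 chaperone and co-chaperone genes on top. The called genes span the range from Dnaja4, with a mean of 1.35 CPM, to Hsp90aa1, with a mean of 159.9 CPM.

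The transcripts of the heat shock factors themselves were not lower. Hsf1, the main activator of the heat shock response, stood at 14.3 CPM in db/db islets and 10.3 CPM in db/m islets, a ratio of 1.39 (1.14 to 1.71). Hsf2, a related factor that can join Hsf1 in mixed trimers, stood at 5.21 CPM in db/db islets and 4.18 CPM in db/m islets, a ratio of 1.25 (0.903 to 1.73). Neither was called, and a transcript level does not measure the activity of these factors, which is set on the protein.

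The HSP90 pair of the cytosol was unequal. Hsp90aa1, the stress-inducible form, lies on chromosome 12 (110691036 to 110696395, GRCm38). It had 782 counts in db/db islets and 4506 in db/m islets, or 40.4 CPM in db/db islets against 294.3 CPM in db/m islets. This was a 7.29-fold lower level (6.76 to 7.88). Hsp90ab1, the constitutive form and the most abundant of the 78 genes by counts, stood at 266.1 CPM in db/db islets and 404.6 CPM in db/m islets, 1.52-fold lower (1.47 to 1.58) and so not called. Hsp90aa1 made up 13.2% of the counts of the pair in db/db islets (12.3% to 14.1%) and 42.1% in db/m islets (41.2% to 43%). This share does not depend on the scaling of the libraries, and the Hsp90aa1 to Hsp90ab1 ratio was 4.79-fold lower in db/db islets (4.4 to 5.22). Hsp90b1, the HSP90 of the ER, stood at 331.8 CPM in db/db islets and 244.8 CPM in db/m islets, and Trap1, that of mitochondria, at 19.9 CPM in db/db islets and 19.3 CPM in db/m islets, so that of the HSP90 genes measured Hsp90aa1 alone was called.

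Of the 3 HSP90 co-chaperones, 1 was called lower. Chordc1, a zinc-binding partner of HSP90 whose start is overlapped by the element shown above, had 29 counts in db/db islets and 53 in db/m islets, 2.31-fold lower (1.44 to 3.77). Stip1, which joins HSP70 to HSP90, stood at 11.9 CPM in db/db islets and 15.5 CPM in db/m islets, a ratio of 0.767 (0.637 to 0.923). Ahsa1, which stimulates the HSP90 ATPase, stood at 15.4 CPM in db/db islets and 19.7 CPM in db/m islets, a ratio of 0.785 (0.667 to 0.924). Of 21 further co-chaperones of HSP90, 0 were called in either direction, where 7.87% of all genes compared were. The median log2 ratio of the 21 was -0.07. Among these, Fkbp5, a co-chaperone of steroid receptors, stood at a ratio of 1.58 (1.45 to 1.72), and Cacybp at 0.65 (0.527 to 0.802).

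**Figure D3:**
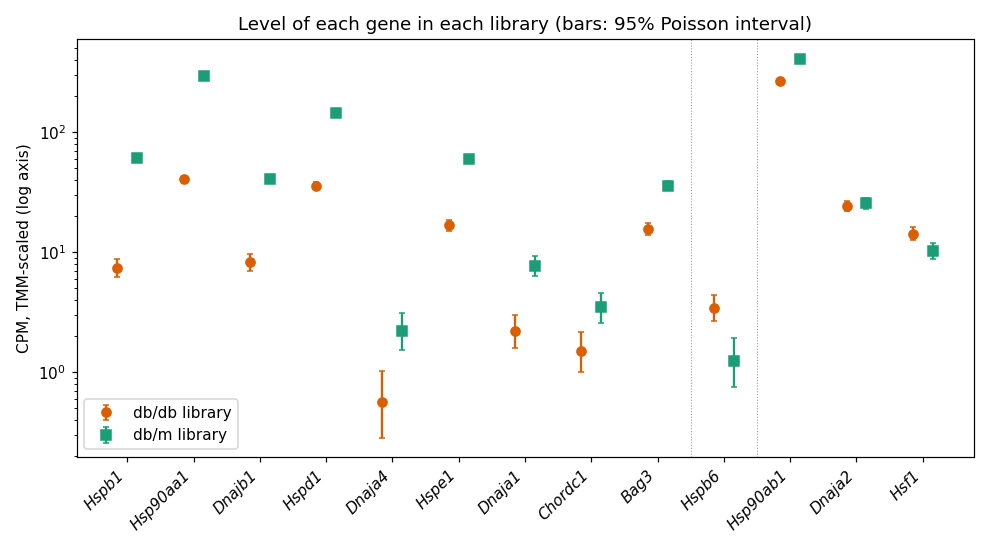
TMM-scaled CPM (log axis) of 13 genes in db/db islets (circles) and db/m islets (squares), with 95% Poisson intervals. For the 9 genes left of the first dotted line the db/db value lies below the db/m value without overlap of the intervals, Hspb6 in the middle has the opposite order, and Hsp90ab1, Dnaja2 and Hsf1 on the right lie within 2-fold.

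J proteins of class A, which share the full domain set of the bacterial protein DnaJ, separated into 2 pairs. Dnaja1, a partner of HSC70, had 43 counts in db/db islets and 118 in db/m islets, 3.47-fold lower (2.43 to 5.04). Dnaja4 had 11 counts in db/db islets and 34 in db/m islets, 3.91-fold lower (1.93 to 8.56), an interval that is wide because of the low counts. Dnaja2, the other cytosolic member, stood at 24.2 CPM in db/db islets and 25.5 CPM in db/m islets, a ratio of 0.95 (0.829 to 1.09), and the mitochondrial Dnaja3 at 23.3 CPM in db/db islets and 17.1 CPM in db/m islets, a ratio of 1.36 (1.17 to 1.59). Dnaja1 made up 4.42% of the class A counts in db/db islets (3.21% to 5.9%) and 14.7% in db/m islets (12.3% to 17.3%). RNA genes lie inside both lower genes, namely Mir207 (0 counts in db/db islets, 38 in db/m islets) and Gm6297 (7 in db/db islets, 20 in db/m islets) in Dnaja1 and Mir5710 (0 in db/db islets, 9 in db/m islets) in Dnaja4, and the sources used here do not say how reads were divided among overlapping genes.

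Class B shares the J domain and a glycine-rich region with class A but lacks its zinc-binding part, and 7 of its 11 genes were compared. Of these 1 was called lower and 6 had ratios below 1, or 5 with total counts. Dnajb1, the inducible HSP40 that drives HSP70 in disaggregation, had 159 counts in db/db islets and 622 in db/m islets, 4.95-fold lower (4.15 to 5.93). Dnajb4, its close relative, had 139 counts in db/db islets and 219 in db/m islets and lay just outside the limit at 1.99-fold lower (1.6 to 2.48). Dnajb4 shares its position with Fubp1, which had a ratio of 1.28 (1.14 to 1.45). Dnajb5 was 1.9-fold lower (1.04 to 3.53) and Dnajb6, which keeps aggregation-prone proteins in solution, 1.68-fold lower (1.13 to 2.52), both short of a call. Dnajb2 stood at a ratio of 0.775 (0.616 to 0.975). Dnajb12 and Dnajb14, which sit in the ER membrane, stood at 0.947 (0.805 to 1.11) and 1.36 (0.994 to 1.88). Dnajb1 alone made up 16.5% of the class B counts in db/db islets (14.2% to 19%) and 43.5% in db/m islets (40.9% to 46.1%). Dnajb3, Dnajb7, Dnajb8 and Dnajb13 had 0 counts in both libraries, and a floor of 3 counts, which is a one-sided limit and so lower than the upper end of a two-sided interval, corresponds to 0.155 CPM in db/db islets and 0.196 CPM in db/m islets.

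Class C, whose members carry the J domain in otherwise unrelated proteins, held 26 genes. Of these, 20 were compared and 0 were called at 2-fold, where 7.87% of all genes compared were called. The median log2 ratio of the 20 was 0.19, with 14 ratios above 1. Dnajc5, the cysteine string protein of secretory vesicles, stood at 41.4 CPM in db/db islets and 34.1 CPM in db/m islets, a ratio of 1.21 (1.09 to 1.36). Dnajc7, which binds both HSP70 and HSP90, stood at 26.1 CPM in db/db islets and 23.2 CPM in db/m islets, a ratio of 1.12 (0.98 to 1.29). Past 1.5-fold with an interval that excludes 1 lay 3 of the 20, with Dnajc25 at 1.59 (1.18 to 2.17), Dnajc28 1.91-fold lower (1.27 to 2.91) and Dnajc30, a mitochondrial member, 1.6-fold lower (1.25 to 2.06). At that limit 8.87% of all genes compared were lower and 8.63% higher. The symbol Dnajc19-ps, listed as protein-coding, is by name a pseudogene and had 3 counts in db/db islets and 1 in db/m islets.

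The remaining class C genes serve many compartments, and none was called. In mitochondria, Dnajc15 and Dnajc19 belong to the import motor of the inner membrane, with ratios of 1.43 (1.05 to 1.95) and 0.723 (0.433 to 1.2), and Dnajc11, which associates with cristae junctions, stood at 0.961 (0.781 to 1.18). In the nucleus and on the ribosome, the splicing protein Dnajc8 stood at 1.05 (0.818 to 1.34), the histone chaperone Dnajc9 at 1.33 (0.732 to 2.49), the ribosome-associated Dnajc2 at 1.29 (0.915 to 1.84) and Dnajc21, which serves ribosome maturation, at 0.856 (0.69 to 1.06). Dnajc13, which acts on endosomes, stood at 1 (0.757 to 1.33), with 6.14 CPM in db/db islets and 6.14 CPM in db/m islets. Dnajc12, a co-chaperone of amino acid hydroxylases, stood at 1.08 (0.72 to 1.65), and Dnajc24, which takes part in diphthamide synthesis, at 0.899 (0.529 to 1.54). The ratios of Dnajc4, Dnajc14, Dnajc16, Dnajc18 and Dnajc22 ran from 1.16 to 1.5, and the interval of Dnajc22, from just above 1 to 2.27, was the one among these 5 that excluded 1. Dnajc6, Dnajc17 and Dnajc27 lay under 1 CPM, and Dnajc5b and Dnajc5g had 0 counts in both libraries.

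The BAG proteins differed in direction. Bag3, the stress-inducible member that links HSP70 to selective autophagy, had 303 counts in db/db islets and 548 in db/m islets, that is 15.6 CPM in db/db islets against 35.8 CPM in db/m islets, 2.29-fold lower (1.99 to 2.64). Bag6, which guards newly made membrane proteins in the cytosol, stood at 44.2 CPM in db/db islets and 34.3 CPM in db/m islets, a ratio of 1.29 (1.15 to 1.44). Bag2, an inhibitor of the ubiquitin ligase CHIP, had 45 counts in db/db islets and 18 in db/m islets, a ratio of 1.98 (1.12 to 3.63) that lay just short of the limit and passed it with total counts. Bag1 stood at a ratio of 0.987 (0.847 to 1.15), Bag4 at 1.11 (0.905 to 1.36) and Bag5 at 1.47 (1.15 to 1.89), and none of these 3 was called. Bag3 made up 15.1% of the BAG counts in db/db islets (13.5% to 16.7%) and 32.9% in db/m islets (30.6% to 35.2%).

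Small heat shock proteins held both the lowest and the highest ratio of the 60 genes. Hspb1, the inducible HSP25 of mouse cells, had 144 counts in db/db islets and 932 in db/m islets, that is 7.43 CPM in db/db islets against 60.9 CPM in db/m islets, and was 8.19-fold lower (6.86 to 9.83). Hspb8, which forms a complex with Bag3, stood at 6.76 CPM in db/db islets and 4.77 CPM in db/m islets, a ratio of 1.42 (1.06 to 1.92). The partners of this complex thus had ratios on opposite sides of 1. Hspb6, known from muscle, had 67 counts in db/db islets and 19 in db/m islets, 2.79-fold higher (1.65 to 4.91), and Lin37, which overlaps it, had a ratio of 1.06 (0.84 to 1.35). The summed level of 10 stellate and fibroblast markers was 10.3 CPM in db/db islets and 9.53 CPM in db/m islets, and that of 8 muscle markers 0.619 CPM in db/db islets and 3.07 CPM in db/m islets, with 6 of these 8 at 0 in db/db islets and 5 in db/m islets. These sums cover genes that differ in direction. Of the stellate and fibroblast markers 4 passed the limit of 1 CPM, 2 with ratios below 1 and 2 above, and Acta2 was called lower. Below that limit the collagen gene Col1a1 had 30 counts in db/db islets and 5 in db/m islets, a ratio of 4.74 (1.82 to 15.7). The growth factor receptor Pdgfra had 11 counts in db/db islets and 1 in db/m islets, a ratio of 8.69 (1.26 to 374). Both were named after their values were seen. Also below the limit, Lum stood at 3.16 (0.313 to 156), Pdgfrb at 1.58 (0.706 to 3.78), Rgs5 at 0.703 (0.335 to 1.46) and Des at 0.615 (0.195 to 1.85). The smooth muscle myosin Myh11 gave 11 of the 12 muscle marker counts in db/db islets and 40 of 47 in db/m islets. The part of these markers in the value of Hspb6 was not tested. Hspb1 made up 39.8% of the small heat shock protein counts in db/db islets (34.7% to 45%) and 89.7% in db/m islets (87.7% to 91.5%), whereas Hspb2, Hspb3, Hspb7, Hspb9 and Hspb11 lay under 1 CPM.

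**Figure D4:**
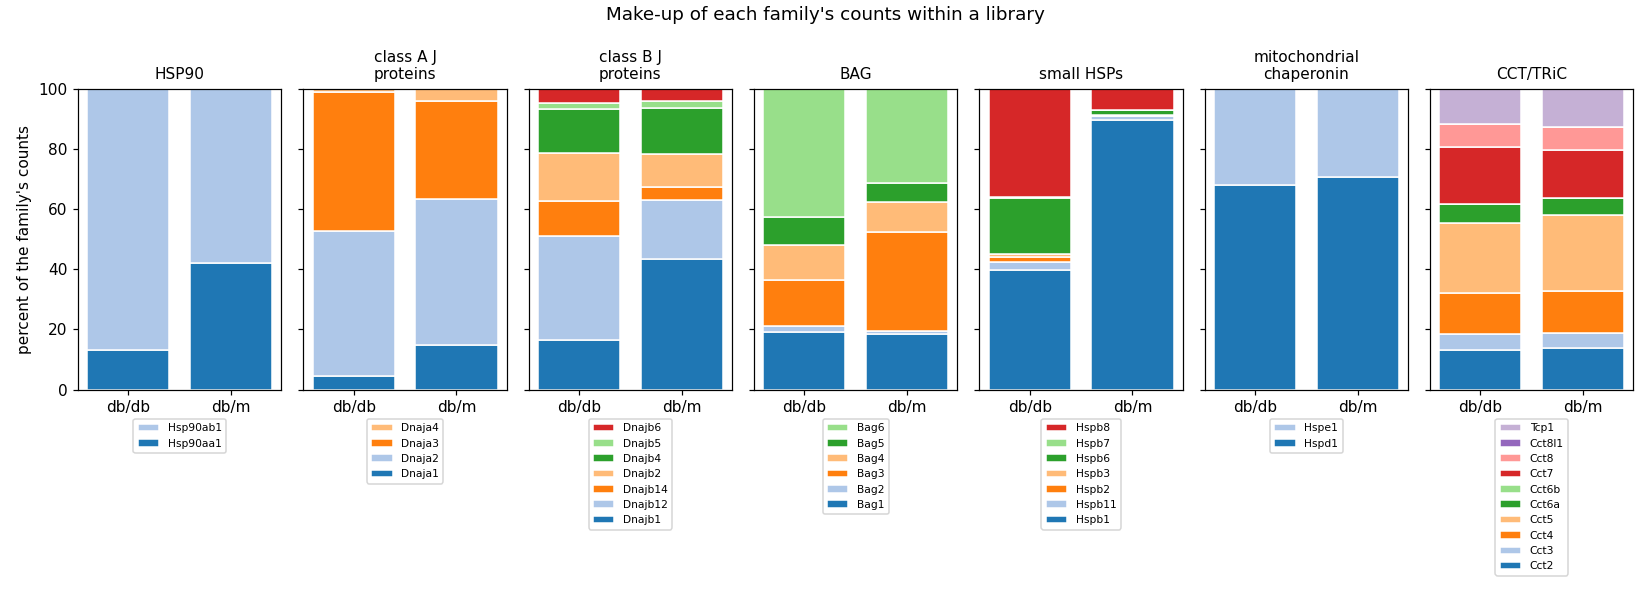
Percent of a family's counts taken by each of its genes in db/db islets (left bar) and db/m islets (right bar), not corrected for gene length. Hsp90aa1, Dnajb1, Bag3 and Hspb1 take smaller shares in db/db islets, while the Hspd1 share of the mitochondrial pair is 68.1% in db/db islets and 70.5% in db/m islets.

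The mitochondrial chaperonin was lower as a pair. Hspd1 (HSP60, the folding chamber) had 689 counts in db/db islets and 2190 in db/m islets, that is 35.6 CPM in db/db islets against 143 CPM in db/m islets, 4.02-fold lower (3.69 to 4.39). Hspe1 (HSP10, its lid) had 323 counts in db/db islets and 918 in db/m islets, that is 16.7 CPM in db/db islets against 60 CPM in db/m islets, 3.6-fold lower (3.16 to 4.09). Their genes lie head to head on chromosome 1 and the stretch between their starts, printed above, holds 1 run of alternating units that counts for both. Hspd1 took 68.1% of the counts of the pair in db/db islets (65.1% to 70.9%) and 70.5% in db/m islets (68.8% to 72.1%), and the Hspd1 to Hspe1 ratio of db/db islets was 0.894 of that in db/m islets (0.765 to 1.05), so that no shift within the pair was detectable at this depth. A second annotated start of Hspd1 lies inside Hspe1, and reads from the overlap cannot be assigned without the strand, which the sources used here do not give.

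Other genes of mitochondrial protein folding were counted as a list. In the list of mitochondrial chaperones and proteases, which also holds both organelle HSP90 genes, 14 were compared. Of these, 0 were called lower and 1 was called higher, where 4.04% of all genes compared were lower and 3.83% higher. With 14 genes, 0 lower calls lies near that share. The median log2 ratio of the 14 was 0.25, beside 0.02 for all genes. Lonp1, a protease of the mitochondrial matrix, stood at 42.2 CPM in db/db islets and 17 CPM in db/m islets, 2.48-fold higher (2.15 to 2.86). Hspa9, the HSP70 of the matrix, stood at 135.8 CPM in db/db islets and 94.9 CPM in db/m islets, a ratio of 1.43 (1.34 to 1.53), and Grpel1, its nucleotide exchange factor, at 27 CPM in db/db islets and 17.2 CPM in db/m islets, a ratio of 1.57 (1.35 to 1.83). The Hspd1 to Hspa9 ratio, a pair picked after the values were seen and free of the scaling, was 5.76-fold lower in db/db islets (5.16 to 6.42).

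The cytosolic chaperonin was close to even. It is a double ring of 8 different subunits that folds actin and tubulin. Its 8 compared genes (Tcp1 and Cct2 to Cct8, with Cct6a for the sixth) had ratios from 0.766 to 1. Of these, 0 were called, where 7.87% of all genes compared were. Cct5, the subunit with the most counts without regard to length, stood at 70.2 CPM in db/db islets and 91.8 CPM in db/m islets, a ratio of 0.766 (0.71 to 0.825). Cct7 stood at 57.8 CPM in db/db islets and 57.7 CPM in db/m islets, a ratio of 1 (0.917 to 1.1). Between these extremes lay Tcp1 at 0.785 (0.705 to 0.873), Cct2 at 0.814 (0.736 to 0.901), Cct8 at 0.826 (0.721 to 0.946), Cct4 at 0.84 (0.76 to 0.929), Cct3 at 0.841 (0.712 to 0.993) and Cct6a at 0.914 (0.784 to 1.07). The median log2 ratio of the 8 was -0.26, and with total counts it was -0.09, with Cct6a at 0.05 and Cct7 at 0.18 in the other direction. Free of the scaling, Cct5 took 23.2% of the CCT counts in db/db islets (22.1% to 24.3%) and 25.4% in db/m islets (24.3% to 26.6%), and Cct7 took 19.1% in db/db islets (18.1% to 20.1%) and 16% in db/m islets (15% to 17%). Usp16 and Mrpl18, which overlap Cct8 and Tcp1, had ratios of 1.22 (1.07 to 1.4) and 1.11 (0.822 to 1.51). The testis gene Cct6b had 0 counts in db/db islets and 1 in db/m islets and Cct8l1 had 2 counts in db/db islets and 0 in db/m islets.

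Prefoldin subunits were not called. Pfdn5 stood at 21.4 CPM in db/db islets and 28.5 CPM in db/m islets, a ratio of 0.749 (0.653 to 0.858). Pfdn2 had 24 counts in each library, a ratio of 0.79 (0.43 to 1.45), and Pfdn1 had 72 counts in db/db islets and 44 in db/m islets, a ratio of 1.29 (0.877 to 1.93). Pfdn4 had 0 counts in both, although every cell is expected to use it, so it is only listed at 0. The list of CCT and prefoldin partners also holds Vbp1, itself a prefoldin subunit, at a ratio of 1.18 (0.922 to 1.5). Among the 13 compared genes of this list, 0 were called lower (4.04% of all genes compared) and 1 higher (3.83% of all genes compared). The higher gene was the tubulin cofactor Tbcb, at 2.22-fold (1.56 to 3.23). It was named after its value was seen. Of 12 compared genes for actins, tubulins and related clients, 2 were called lower, again beside 4.04% of all genes compared. These were Actg1, by 2.31-fold (2.09 to 2.56), and Acta2, which was named after its value was seen, by 2.8-fold (1.45 to 5.7). Actb, the other cytoplasmic actin, was 1.81-fold lower (1.75 to 1.89) and the tubulin Tuba4a stood at 1.29 (1.1 to 1.52).

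Calls in the other lists of the folding network were counted in the same way, and the lists were not tested against each other. Each count stands beside 4.04% of all genes compared called lower and 3.83% called higher. Among 9 compared HSP70 and HSP110 genes 4 were called lower and 0 higher, with Hspa1a 35.8-fold lower (28.9 to 44.9), Hspa1b 35.6-fold (30.5 to 41.8), Hsph1 15.4-fold (13.8 to 17.2) and Hspa8 3.1-fold (2.96 to 3.26). Reads of the nearly identical Hspa1a and Hspa1b may have been split between them, so each value is uncertain. Of 19 other genes linked to heat shock factor 1, 2 were called lower, among them Serpinh1, named after its value was seen, by 2.15-fold (1.6 to 2.91), and the median log2 ratio was -0.29. Both calls were lost with total counts. Of 16 ER chaperones, 0 were called in either direction, where 4.04% of all genes compared were lower and 3.83% higher, 13 had ratios above 1 and the median log2 ratio was 0.37, with the ER J protein Dnajc3 at 1.61 (1.29 to 2.01) and Dnajb11 at 1.41 (1.28 to 1.55).

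**Figure D5:**
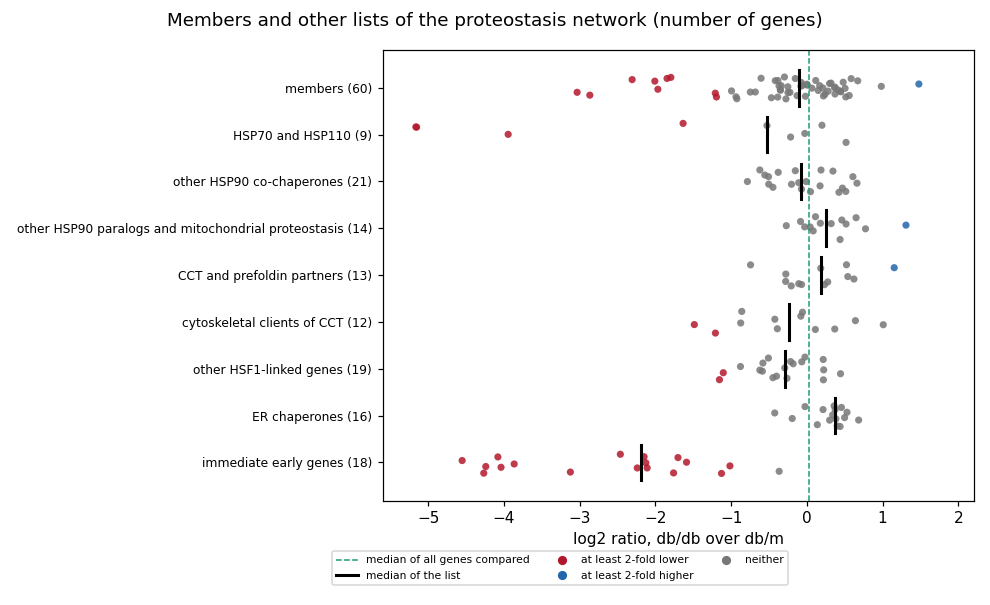
Log2 ratio of db/db over db/m for the genes compared in each list, with a black line at the list's median and a dashed line at the median of all genes compared. Red points at least 2-fold lower fall in the chaperone members, the HSP70 and HSP110 genes, the CCT clients, the genes linked to heat shock factor 1 and, for 17 of 18, the immediate early genes.

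Immediate early genes, a rapid transcriptional response that tissue handling can also set off, were lower in db/db islets too. Of 18 compared, 17 were called lower and 0 higher, where 4.04% of all genes compared were lower and 3.83% higher. The summed level of the list was 164 CPM in db/db islets and 1074 CPM in db/m islets. Among the cell type markers, the summed level of 11 beta cell markers was 1558 CPM in db/db islets and 1559 CPM in db/m islets, that of 8 alpha cell markers 221.5 CPM in db/db islets and 60.8 CPM in db/m islets, that of 5 delta and PP cell markers 100.5 CPM in db/db islets and 16.5 CPM in db/m islets, and that of 27 acinar markers 633143 CPM in db/db islets and 723403 CPM in db/m islets. The beta cell sum is made up mostly of Ins2, at 1081 CPM in db/db islets and 1029 CPM in db/m islets, and Iapp, at 306.6 CPM in db/db islets and 181.8 CPM in db/m islets. Of the 10 beta cell markers compared, 6 were called lower (Mafa, Slc2a2, Slc30a8, Ucn3, Nkx6-1 and Ins1) and 0 higher, with a median log2 ratio of -1.19. Of 4 alpha cell markers compared 3 were called higher, of 5 delta and PP cell markers 4 were called higher, and of 27 acinar markers 2 were called lower. The part of these lists in the chaperone values was not tested.

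Heat shock elements in the promoter window (250 bases before to 50 bases after a start) were described for the 62 of the 78 genes that the RefSeq promoter table covers. Of 27025 genes in that table, 0.662% held the 3-unit element in a window. Among the chaperone genes 4 held it, Hspd1, Hspe1, Chordc1 and Dnajb6, and Hspd1 and Hspe1 share 1 stretch. It lies at bases -89 to -72 of Hspe1, at -4 to 19 of Chordc1 and at -46 to -34 of Dnajb6, the 1 of the 4 that was not called lower. The shorter 2-unit element was chosen after the promoters were seen and is contained in the longer one. It was held by 17% of all genes in the table and by 13.4% of those that passed the limit of 1 CPM. Of the chaperone genes called lower with a promoter, 7 of 8 held it (Hspd1, Hspe1, Chordc1, Hspb1, Dnaja1, Dnaja4 and Bag3). Here too Hspd1 and Hspe1 share 1 stretch. Hsp90aa1, also called lower, has no promoter in the table. Of the compared chaperone genes that were not called lower, 7 of 39 held the 2-unit element. In Hspb1 this element occurs at -117 to -110 and at -97 to -90, as printed above. Dnajb1, the remaining lower gene of the 8, holds neither spelling in its windows, which says only that these letters are absent there, and Hspb6, the higher gene, holds the 2-unit spelling. Such matches describe letters and do not show binding.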

How the data were processed

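Gene counts of 1 db/db and 1 db/m islet library were analysed, grouped by title and genotype label. HISAT2 2.0.4 and the builds mm10 and GRCm38 are named in the submitters' processing notes, while the sources used here give no counting program, annotation or strand setting. The authors deposited whole-number counts per gene, without normalization. Counts were scaled with TMM (edgeR 4.0.16, R 4.3.3), and the ratio of db/db over db/m received an exact Clopper-Pearson 95% interval (scipy 1.17.1 with numpy 2.4.6 and pandas 2.3.3 under Python 3.11.15; figures, matplotlib 3.10.9). PCR copies are not independent molecules, so all intervals and the floor of 3 counts cover counting error only. Ratios between genes of a library have exact conditional intervals.

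The genes, lists and calling rule were chosen with earlier results of these data known, so no list is independent support for its direction. Named were all called genes, those past 1.5-fold with an interval excluding 1, the heat shock factors, HSP90, chaperonin and prefoldin genes, the 2 most abundant of each other role, and from each other list up to 4 genes above 10 CPM that had the largest absolute log2 ratios. Other genes were named after their values were seen. Alternatives were total counts, DESeq2 1.42.0 size factors, total counts without acinar and hormone genes, other limits on low counts, a 1.5-fold limit and an interval beyond 2-fold. Levels per transcript length and protein sequences were not used here. One gene that the naming rule picks is not reported here.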

Additional observations from a re-analysis of the deposited data

How the results depend on the processing

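The 9 lower calls were kept as the same 9 genes under all 3 other scalings, and DESeq2 size factors added Dnajb4. Removing the filter on low counts can only add calls, and it added no lower gene. With a minimum of 10 CPM 6 remained (without Chordc1, Dnaja1 and Dnaja4), and with the interval required to lie beyond 2-fold 6 remained (without Bag3, Chordc1 and Dnaja4). A 1.5-fold limit gave 15 lower and 3 higher genes. The count of higher genes was 2 with total counts, also without acinar and hormone genes (Bag2 joined Hspb6), and 0 at 10 CPM or with the stricter interval. Over all genes, lower calls numbered 277 with total counts, 814 with no filter, 95 at 10 CPM, 914 at 1.5-fold and 137 with the stricter interval, and higher calls 781 with no filter, 36 at 10 CPM, 889 at 1.5-fold and 99 with the stricter interval. Calls at these limits change by construction. The other scalings shift every log2 ratio by at most 0.18, and the limits leave the ratios unchanged. No called gene could therefore reverse direction. No paired analysis was possible because each group has 1 library. Depth limits Dnaja4 (45 counts over both libraries), Pfdn2 (48), Dnajb5 (50) and Dnajc9 (51) most among the 60 genes, and among the called genes also Chordc1 (82) and Hspb6 (86).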
